A study of Homo sapiens with 2 samples.

Results

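Respiratory chain assembly factors are proteins that help to build complexes I to V of the inner mitochondrial membrane without staying in the finished enzymes. Their mRNAs were examined in HEK293 cells, a human embryonic kidney line, with wild-type (WT) genotype or with the ER stress kinase PERK knocked out (PERK-KO). Both cultures, at passage 15 to 20, had been kept for 12 h in OXPHOS medium, which has galactose and pyruvate in place of glucose and makes cells depend on oxidative phosphorylation. The PERK-KO cells were made with CRISPR/Cas9 and grown from single cells, and which clone was sequenced is not given in the sources used here. Poly(A) RNA of 1 sample per genotype was sequenced, so no difference has a replicate error, none was tested, and genotype cannot be told apart from clone, culture or library. The members were the rows of both gene tables whose symbol begins with NDUFAF, SDHAF, ATPAF, UQCC, COA and a digit or PET and digits, together with COX10 to COX20 and single genes such as SCO1, SURF1 and BCS1L. The rule found 43 of 25277 rows. One of them, PET112, encodes a subunit of the mitochondrial glutamyl-tRNA amidotransferase and is no assembly factor, and another, NDUFAF4P1, is a pseudogene. The other 41 rows comprised 12 factors of complex I, 2 of complex II, 4 of complex III, 20 of complex IV and 3 of complex V.

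The respiratory complexes are put together in modules from subunits of nuclear origin and, except in complex II, also of mitochondrial origin. Assembly factors stabilise the intermediates and insert the cofactors, namely flavin, iron-sulfur clusters, heme and copper. Complex IV, cytochrome c oxidase, draws on the longest list, since its catalytic subunits COX1 and COX2 are made inside mitochondria and must receive heme A and copper ions. Loss of individual factors, SURF1 among them, causes mitochondrial disease in humans.

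Several of these genes carry near their transcription start the heptamer CCGGAAG, a sequence with the GGAA core to which the GA-binding protein GABP binds. The window searched ran from 250 bases before to the first 50 bases from the start of the canonical transcript (GENCODE on GRCh37), on both strands. Sites are shown for the factors with CCGGAAG that were lower in PERK-KO beyond the study's fold threshold (a log2 ratio under -0.58), and for COX10, the factor with the highest PERK-KO to WT ratio. They are read along the gene's own strand, with the heptamer or its reverse complement CTTCCGG in capitals.
PET100, chr19:7694556-7694582, plus strand: acgccagcgaCCGGAAGcagaatagag
COX17, chr3:119396227-119396253, minus strand: agagcgactgCCGGAAGtgactgcgga
SURF1, chr9:136223340-136223366, minus strand: ctcctgcgtcCCGGAAGcgcccgcggg
COA5, upstream site, chr2:99224971-99224997, minus strand: ccgcggcccgCCGGAAGttgttgccgc
COA5, downstream site, chr2:99224951-99224977, minus strand: ttgccgctggCTTCCGGtcccctgaga
COX10, upstream site, chr17:13972692-13972718, plus strand: tttgcggttcCCGGAAGtccttcaggc
COX10, downstream site, chr17:13972792-13972818, plus strand: agcccgcccgCCGGAAGtggcggcccg
The heptamer began 113 bases before the start in PET100, 11 bases into the transcript in COX17 and 8 bases into it in SURF1. In COX10 it began 119 and 19 bases before the start.

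Expression is given as FPKM, a fragment number scaled by transcript length and library depth, with the confidence limits that the authors deposited beside each value, shown in parentheses. The limits carry the counting and assignment error of 1 library, and in bulk RNA a lower level in every cell cannot be told apart from fewer cells that express the gene. Rows that reached 1 FPKM in either sample were compared, which left 14594 rows, 42 of the 43 member rows and all 41 factors. The row left out was the pseudogene NDUFAF4P1, with 0.408 in WT and 0.465 in PERK-KO. EIF2AK3, the gene that encodes PERK, measured 5.61 FPKM (5.11 to 6.12) in WT and 3.89 (3.44 to 4.34) in PERK-KO, and this mRNA level does not show whether the protein is made. Of the markers listed for HEK293 cells, VIM, KRT8, KRT18 and NEFL were between 33.4 and 640.5 in both samples, PAX2 was under 1 in both, and NEFM was 0.662 in WT and 5.21 in PERK-KO. Of 7 markers of other cell types, ALB, HBB and UCP1 were listed at 0 in both samples and the others had an FPKM of at most 2.72.

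The assembly factors covered a wide range of levels, and the order of levels was nearly the same in both samples (Spearman's rho 0.979 across 41 factors, which share 2 libraries). The top of the order was held by small proteins of complex IV. In WT cells the highest level was that of PET100 with 323 (298 to 348), followed by COX17 with 266 (250 to 281), COA3 with 192 (184 to 200) and COA4 with 147 (140 to 153). The limits of each of these 4 were separate from those of the next in order. In PERK-KO cells COX17 came first with 153 (141 to 166) and PET100 second with 131 (116 to 147), and the limits of these 2 overlapped. The highest factor of complex I was NDUFAF3, at rank 7 in WT, and that of complex V was ATPAF1, at rank 9. SDHAF2 was the highest factor of complex II with 44.7, and TTC19 the highest of complex III with 33.2. At the lower end stood COX20 with 3.08 (2.56 to 3.61), a chaperone of COX2, COX19 with 5.12 (4.66 to 5.59) and COX10 with 5.39 (4.72 to 6.05). From rank 8 to rank 18 neighbours in the order had overlapping limits, so the order within that stretch is not resolved.

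**Figure D1:**
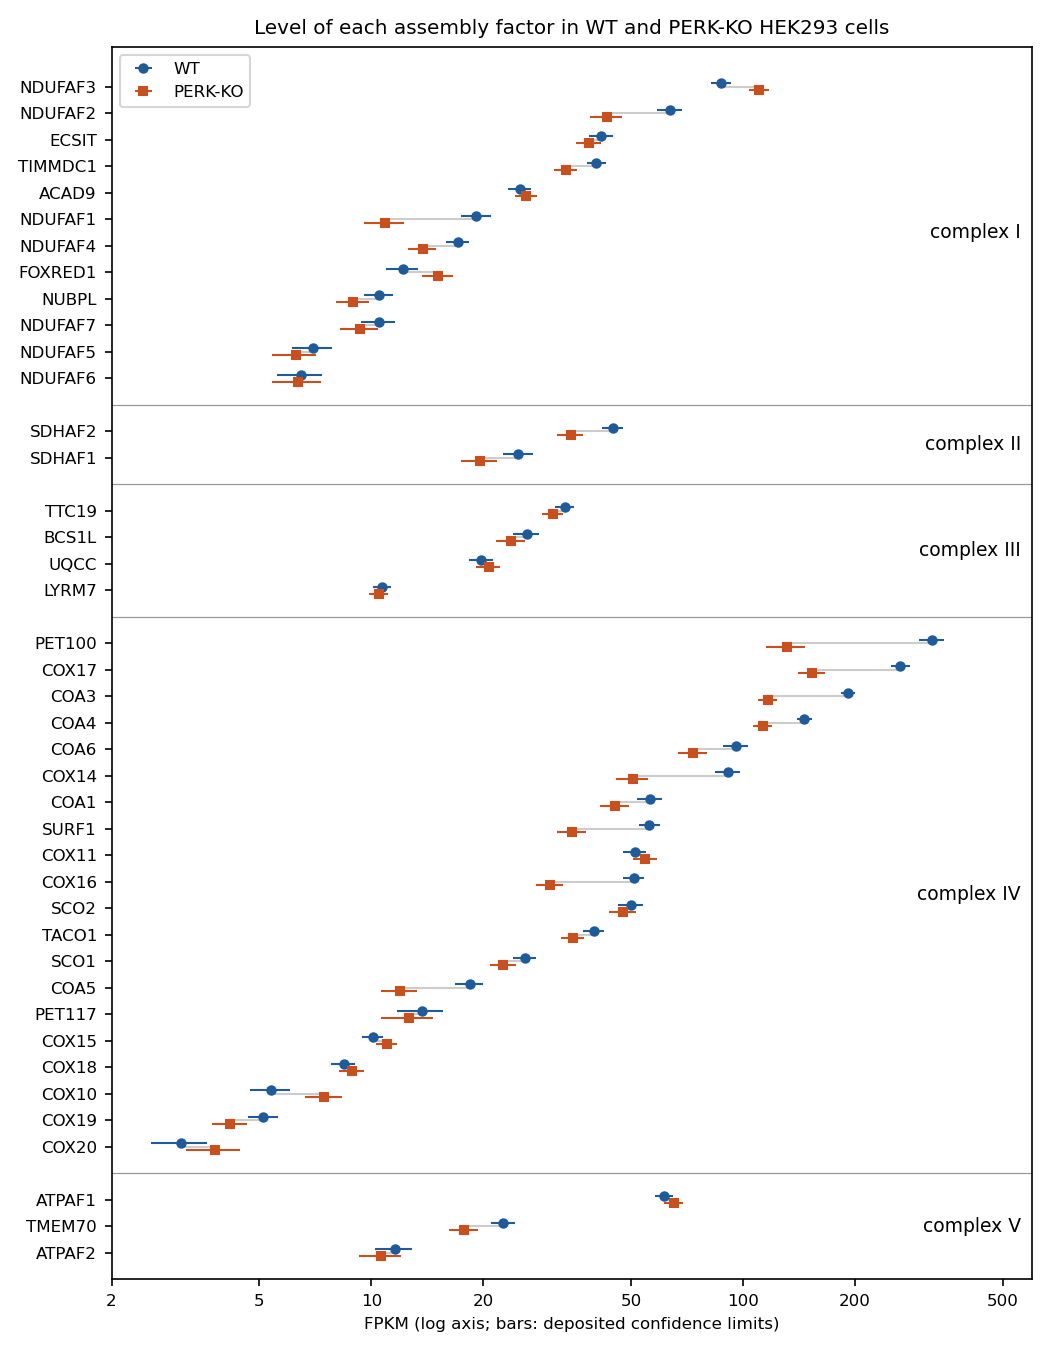
FPKM of the 41 assembly factors in WT (circles) and PERK-KO cells (squares), 1 sample each, on a log axis and grouped by complex; bars are the deposited confidence limits and grey lines join the 2 samples of a gene. PET100, COX17, COX14 and COA3 of complex IV lie far to the left in PERK-KO, whereas NDUFAF3, FOXRED1 and COX10 lie to the right.

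In PERK-KO cells 31 of the 41 factors had a lower FPKM than in WT and 10 had a higher one. The study counts a gene as reduced in these cells beyond about 1.5-fold, a log2 ratio of -0.58. Past this threshold lay 8 factors, PET100, COX14, NDUFAF1, COX17, COX16, COA3, SURF1 and COA5, which is 19.5% of the 41, whereas 7.83% of all 14594 genes were lower by as much. Short transcripts were lower more often, with 30.0% of all genes under 1000 bases and 11.3% of those from 1000 to under 2000 bases past the threshold. When the running median log2 ratio of genes of similar transcript length was subtracted, 3 of the 8 stayed past it, PET100, NDUFAF1 and COX16. The share of all genes past the threshold on that scale is not given here, so the 3 are not read as an excess. On the unadjusted scale none of the 41 was higher by more than the same fold, compared with 10.5% of all genes. Confidence limits were separate and lower in PERK-KO for 18 factors, or 43.9%, against 18.7% of all genes. They were separate and higher for 3 factors, COX10, NDUFAF3 and FOXRED1, or 7.32%, against 26.1% of all genes. These shares also depend on level and length. The median WT FPKM was 25.9 for the factors and 9.41 for all genes. Limits were separate and higher for 30 of 1045 genes under 1000 bases and for 3480 of 10028 from 2000 bases on. The limits overlapped for the remaining 20 factors, which were called in neither direction. Overlap of limits does not show that the levels were equal. The median log2 ratio of PERK-KO to WT was -0.18 over the 41 factors and 0.04 over the 14439 genes above 0 in both samples. The threshold divides close values, since COA5 just inside it was 1.54-fold lower and NDUFAF2 just outside it 1.48-fold lower.

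The complex IV factors, 20 of the 41, held 7 of the 8. Their median log2 ratio was -0.31, and 11 had separate lower limits. Of the 21 other factors 1 was past the threshold and 7 had separate lower limits, with a median of -0.14. Among all genes 7.83% were past the threshold on the lower side and 18.7% had separate lower limits. The complex IV factors lay above both shares. The other factors lay below the first, at 4.76%, and above the second. The complex IV factors had shorter transcripts, with a median of 1558 bases against 2032. Their median WT FPKM was higher, at 50.4 against 22.7. After the subtraction for length only PET100 and COX16 of the 7 stayed past the threshold. The part of length and level in this contrast was not tested further. The lowest ratio of all belonged to PET100, an inner membrane protein needed for the biogenesis of cytochrome c oxidase, whose gene lies on chromosome 19 from 7694671 to 7696510 (GRCh37) on the plus strand. It measured 323 FPKM (298 to 348) in WT and 131 (116 to 147) in PERK-KO, a 2.46-fold difference. It was the only factor lower by more than 2-fold, and 0.845% of the 14439 genes above 0 in both samples had a lower log2 ratio. The exons of its canonical transcript overlap those of PCP2 on the other strand over 29.3% of their length, and PCP2 was at most 0.0986 in both samples. A further 19.5% is shared with an annotated protein-coding gene on the same strand, ENSG00000268400, which was not analysed here, so PET100 reads may include some of its reads.

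COX14 and COA3 bind newly made COX1 and couple its translation to assembly. COX14, on chromosome 12 from 50505764 to 50514240, measured 91.2 FPKM (84.4 to 98.1) in WT and 50.5 (45.5 to 55.6) in PERK-KO. It shares 13.6% of its transcript with a noncoding RNA gene on the same strand, ENSG00000272368. For COA3, on chromosome 17 from 40949636 to 40950743, the values were 192 (184 to 200) and 117 (110 to 123). Both were thus lower in PERK-KO, by 1.80-fold and 1.65-fold. Their log2 ratios were -0.42 and -0.33 after subtraction of the median for their length. SURF1, which acts in the early steps of COX1 assembly and lies on chromosome 9 from 136218666 to 136223361, had 56.1 (52.4 to 59.7) in WT and 34.7 (31.6 to 37.8) in PERK-KO, with a log2 ratio of -0.43 after the same subtraction. The other factors that act on COX1 differed less. COA1 had 56.3 (51.9 to 60.8) and 45.3 (41.3 to 49.3), and TACO1, which activates the translation of COX1, had 39.7 (37.2 to 42.2) and 34.9 (32.4 to 37.5) with overlapping limits. The TACO1 values are uncertain, since 66.3% of its transcript is shared with the protein-coding gene ENSG00000288894 on the same strand.

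The factors that carry copper or mature COX2 were divided. COX17, the chaperone that hands copper to SCO1, SCO2 and COX11, measured 266 FPKM (250 to 281) in WT and 153 (141 to 166) in PERK-KO, with a log2 ratio of -0.36 after the subtraction for length. Its gene lies on chromosome 3 from 119388372 to 119396243. COX16, which takes part in the copper loading of COX2, had 50.9 (47.7 to 54.2) and 30.3 (27.8 to 32.8). Its exons are shared in part with the read-through gene SYNJ2BP-COX16, which had at most 0.142 in both samples. On the unadjusted scale the recipients of copper from COX17 differed less than COX17 did. SCO1 had 25.9 (24.1 to 27.8) and 22.7 (20.8 to 24.5), SCO2 had 49.9 (46.1 to 53.7) and 47.6 (43.6 to 51.6), and COX11 had 51.3 and 54.7. The limits of these 3 overlapped between WT and PERK-KO cells. After the subtraction for length, SCO1 was at -0.52, lower than COX17, whereas SCO2 was at 0.21 and COX11 at 0.05. Canonical exons of SCO2 overlap those of NCAPH2 on the other strand over 87.1% of their length, and those of PET117 overlap KAT14 over 78.3%, so the values of both are uncertain. COX11 overlaps exons of TOM1L1 on the other strand over 24.9% of its transcript. Of the other genes in this group, COA6, which keeps the copper site of SCO proteins reduced, was 1.30-fold lower and COX19 was 1.23-fold lower, with separate limits, while COX18 and COX20 had overlapping limits.

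The enzymes of heme A synthesis were not lower. COX10, the heme O synthase on chromosome 17, measured 5.39 FPKM (4.72 to 6.05) in WT and 7.48 (6.64 to 8.33) in PERK-KO, a log2 ratio of 0.47. COX15, which converts heme O to heme A, had a log2 ratio of 0.12 with overlapping limits, and shares 21.5% of its transcript with ENSG00000285932 on the same strand. Of the CX9C proteins COA4 and COA5, small proteins of the intermembrane space with paired cysteines, COA5 had 18.4 (16.8 to 19.9) and 11.9 (10.6 to 13.3), and COA4 had 147 (140 to 153) and 113 (107 to 120). COA5 was therefore past the threshold and COA4, 1.29-fold lower, was not, and after the subtraction for length neither was, with COA5 at -0.48 and COA4 at 0.0041. PET117 had 13.7 (11.7 to 15.6) and 12.6 (10.6 to 14.6), with overlapping limits.

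Complex I factors lay on both sides of the WT level. NDUFAF1, on chromosome 15 from 41679547 to 41694658, measured 19.2 FPKM (17.4 to 20.9) in WT and 10.9 (9.55 to 12.3) in PERK-KO, a 1.76-fold difference. It works with ECSIT and ACAD9 in the MCIA complex, which builds a membrane module of complex I. Its partners did not differ beyond their limits, ECSIT with 41.5 (38.4 to 44.6) and 38.6 (35.5 to 41.7), and ACAD9 with 25.1 (23.4 to 26.9) and 26.1 (24.3 to 28.0). NDUFAF3 and NDUFAF4 act as a pair in the early Q module, and their values pointed in opposite directions. NDUFAF3 had 87.4 (82.1 to 92.8) in WT and 111 (104 to 117) in PERK-KO, whereas NDUFAF4 had 17.1 (15.9 to 18.4) and 13.8 (12.6 to 15.0). The limits were separate for each. The late-acting factors were divided as well. NDUFAF2, a chaperone of the late intermediate, had 63.5 (58.6 to 68.5) and 43.0 (38.7 to 47.3), and FOXRED1, a flavin-dependent protein, had 12.1 (10.9 to 13.3) and 15.1 (13.7 to 16.5). TIMMDC1, a membrane factor, was 1.21-fold lower with separate limits, and overlaps CD80 on the other strand over 33.5% of its transcript. The remaining 4, NDUFAF5, NDUFAF6, NDUFAF7 and NUBPL, which modify or load Q module subunits or serve iron-sulfur clusters, lay between 6.26 and 10.5 in both samples and had overlapping limits. The median log2 ratio of the 12 factors was -0.16.

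For complexes II, III and V no factor reached the threshold. SDHAF2, which promotes the attachment of flavin to SDHA, measured 44.7 FPKM (41.7 to 47.6) in WT and 34.4 (31.6 to 37.2) in PERK-KO. SDHAF1, an LYR protein that serves the iron-sulfur subunit SDHB, had 24.9 (22.6 to 27.2) and 19.6 (17.4 to 21.8). Both were thus lower with separate limits, by 1.30-fold and 1.27-fold. SDHAF2 shares 33.1% of its transcript with ENSG00000256591 on the same strand. All 4 factors of complex III had overlapping limits. Among them BCS1L, the ATPase that places the Rieske iron-sulfur protein, had 26.2 (24.0 to 28.4) and 23.8 (21.6 to 25.9), and UQCC (now UQCC1), which acts in cytochrome b synthesis, had 19.8 (18.3 to 21.3) and 20.7 (19.1 to 22.3). LYRM7 and TTC19, which also serve the Rieske protein, lay between these in log2 ratio. Of the ATP synthase factors, TMEM70, which helps to incorporate subunit c, had 22.7 (21.0 to 24.4) and 17.8 (16.2 to 19.3) with separate limits. TMEM70 shares 16.9% of its transcript with the processed pseudogene RPS20P21 on the same strand. ATPAF1 and ATPAF2, the chaperones of the catalytic F1 head, had log2 ratios of 0.08 and -0.12 with overlapping limits.

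The structural subunits of the same complexes were set beside the factors. Of 79 nuclear-encoded subunits, 30 were past the threshold on the lower side, 68 (86.1%) were lower with separate limits, and the median log2 ratio was -0.49. Among all genes 7.83% were past the threshold on the lower side and 18.7% were lower with separate limits. Of all genes under 1000 bases 30.0% were past the threshold. The share of such short genes that were lower with separate limits is not given here. The median was -0.55 for subunits of complex I against -0.16 for its factors, -0.45 against -0.07 in complex III, -0.58 against -0.31 in complex IV and -0.44 against -0.12 in complex V. In complex II it was -0.21 for the subunits and -0.36 for the factors. Subunit transcripts were shorter, with a median of 756 bases compared with 1770 bases for the factors, and more abundant, with a median FPKM in WT of 210 compared with 25.9. After subtraction of the running median for length the medians of subunits and factors were -0.15 and -0.12 in all. By complex they were -0.18 and -0.13 in complex I, -0.06 and -0.06 in complex III, -0.19 and -0.20 in complex IV and -0.10 and -0.07 in complex V, so most of the gap on the unadjusted scale was not seen on this one. In complex II they were 0.04 for the subunits and -0.10 for the factors. With 1 sample per genotype these differences between gene groups were not tested.

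A further 7 factors are listed in the tables under older symbols that the naming rule does not reach. C17orf89, now NDUFAF8, a partner of NDUFAF5, measured 575 FPKM in WT compared with 255 in PERK-KO (log2 ratio -1.18), and its WT level exceeded those of the 41 factors. C11orf83 (UQCC3) and C6orf57 (SDHAF4), named after their values were seen, had log2 ratios of -0.82 and -0.64. At the other end SELRC1, now COA7, had 15.8 and 22.5, a log2 ratio of 0.52. With these 7 added, 11 of 48 factors (22.9%) were past the threshold on the lower side and none on the higher side. Of all genes, 7.83% were past it on the lower side and 10.5% on the higher side. Among 15 further proteins with a part in assembly, including the membrane insertase OXA1L, 2 (13.3%) were past it on the lower side and none on the higher side. Their median log2 ratio was -0.08, and the values ran from -0.59 for CMC2 to 0.45 for OXA1L.

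Transcript length moved with these differences. Across 41 factors the log2 ratio and the length of the canonical transcript had a Spearman's rho of 0.556, and across 13725 genes with a known length it was 0.446, all from the same 2 libraries. The 8 factors past the threshold had transcripts of 426 bases in COX17 to 1770 bases in COA5. Of the 23 factors with transcripts under 2000 bases 8 were past the threshold, and of the 18 longer ones none was. By length, 4 of 9 factors under 1000 bases (44.4%) and 4 of 14 from 1000 to under 2000 bases (28.6%) were past it. Among all genes the share was 30.0% under 1000 bases, 11.3% from 1000 to under 2000 bases and 3.41% from 2000 bases on. All 8 lay below the running median of genes of their length. With that median subtracted, PET100, NDUFAF1 and COX16 of the 41 factors stayed past the threshold, at log2 values of -0.87, -0.66 and -0.60. No share of all genes past the threshold on this scale is given here. NDUFAF3, with a transcript of 902 bases, lay 0.69 above the running median and COX10 0.44 above it. The median of the 41 factors was -0.12 on this scale, and that of the 20 complex IV factors -0.20. The part of length in the differences was not tested beyond this subtraction.

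The heptamer CCGGAAG was present in the promoter window of 14 of the 41 factors (34.1%) and in 18.6% of the windows of 13740 compared genes. It was found in 10 of the 20 complex IV factors, in 2 of 12 for complex I, in 1 of 2 for complex II, in 1 of 4 for complex III and in none of 3 for complex V. Of the 8 factors past the threshold 4 held it, the genes whose sites are printed above besides COX10, and of the other 33 factors 10 did (30.3%). COX14, NDUFAF1, COX16 and COA3 thus had low ratios without these letters in the window, while COX10 and COX15, which were not lower, held them. The printed stretches of COX17 and SURF1 were not found as a whole in the promoter windows of a second annotation, RefSeq. This does not show that the heptamer itself was absent there. Of 36 factors with a RefSeq entry, 14 held it in each annotation. All these matches describe letters in a window and say nothing of binding in these cells.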

How the data were processed

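The authors deposited 1 table of FPKM per gene for each sample, with lower and upper confidence limits. Per the labels, reads were aligned to hg19 with TopHat2 2.0.13 and quantified with Cufflinks 2.2.1, and the annotation release is not given in the sources used here. The kit is not stated to keep strand. Read totals are not in the tables. If the limits lie 2 standard deviations of counting noise from the value, each factor rested on 138 to 2347 fragments.

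Ratios were taken without a pseudocount over rows that reached 1 FPKM in either sample. Limits were called separate when the upper limit of one sample lay below the lower limit of the other. No test was made, because each genotype has 1 sample. Gene positions are those of the tables, counted from 1. Lengths, exons and promoter windows came from canonical transcripts of GENCODE 44 on GRCh37, matched by symbol or by a reciprocal overlap of at least 0.7, for 94.1% of compared rows and all 41 factors. The running median used 501 genes. RefSeq promoter windows (GRCh38.p14) gave the same answer on CCGGAAG for 34 of 36 factors with an entry. The printed stretches of PET100, COA5 and COX10 were found in them. Those of COX17 and SURF1, whose heptamers lie inside the canonical transcript, were not found. Of the factors 16 share exon bases with another annotated gene and 6 have annotated pseudogene copies, which may share reads.

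The members and gene lists were chosen with earlier results of these data known. By the naming rule any factor could be named, with both values and limits for those past the threshold and for the extremes and highest level of each complex, and the lowest and highest of the other lists. The alternatives tried were other filters, pseudocounts, scalings, thresholds and member lists. Python 3.11.15 with numpy 2.4.6, pandas 2.3.3, scipy 1.17.1 and matplotlib 3.10.9 was used. The calls were also run on simulated data with counting noise only and with changes larger than those of any factor. That run does not show how reliable calls near the threshold are, or how cultures differ.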

Additional observations from a re-analysis of the deposited data

How the results depend on the processing

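The 8 factors past the fold threshold on the lower side kept that call with pseudocounts of 0.1 and 1 and with both rescalings of the libraries, where NDUFAF2 joined them to make 9. The count was also 8 without a filter, with a minimum of 5 FPKM, with rows of one name summed and with separate limits required. It was 14 at a threshold of 0.32 on the log2 scale, 1 at 2-fold and 3 after subtraction of the running median over transcript length, which left COA3, COA5, COX14, COX17 and SURF1 inside the threshold. The count of higher factors, 0, became 2 at the threshold of 0.32 (COX10 and NDUFAF3) and 1 after the same subtraction (NDUFAF3). COA1 and COA4, with separate lower limits, changed sign there, to 0.043 and 0.0041, and the median of the complex II factors went from -0.36 to -0.10. Counts with separate limits, 18 and 3, were run only with other filters, with rows of one name summed and with the assembly factors alone. They stayed the same, but these settings had little room to change them. Rescaling and the subtraction for length were not applied to the limits. The median of the 42 compared member rows ranged from -0.22 to -0.12 around -0.18. Adding the factors under older symbols and summing COX16 with its read-through gene were chosen after seeing the data. No paired analysis was possible because each genotype has 1 sample, and for the same reason no replicate could be left out. Without replicates, depth limits only counting error, and a difference between cultures of the size seen here cannot be separated from one between genotypes.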
